A study of Mus musculus with 4 samples.

Results

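The glucocorticoid receptor gene Nr3c1 and 9 genes it is known to induce, Fkbp5, Tsc22d3, Per1, Sgk1, Dusp1, Klf9, Mt1, Zbtb16 and Cd163, were followed in mouse tumour-associated macrophages. These 10 genes were taken by name from a table of 54532 genes, and all 10 carried enough reads to be tested. The set was proposed with the MK-8931 against control differences of these libraries in view and so counts as chosen by those values. The values and calls given below for these genes are a description, with no test of the set. Messenger RNA was measured by bulk RNA sequencing in 4 libraries, 2 controls and 2 labelled with MK-8931 (verubecestat), a compound that blocks the protease BACE1. The cells came from glioblastoma xenografts and were sorted as live cells positive for CD45 and CD11b and negative for Gr1. Both groups are labelled with the strain name GBM mice, and the labels' protocols give vehicle or compound for 3 days. Those protocols speak of glioma stem cells, while the cell type label is sorted TAMs, so which cells were exposed is not settled by the labels, and neither the host strain nor the age is given in the sources used here.

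As background, the glucocorticoid receptor waits in the cytoplasm in a complex of heat-shock protein chaperones and immunophilins. On binding cortisol or corticosterone it enters the nucleus, where pairs of receptors bind palindromic DNA elements and raise transcription of nearby genes, while other contacts lower the output of NF-kB and AP-1 at inflammatory genes. In macrophages, glucocorticoids are known to lower inflammatory cytokines and to raise scavenger receptors such as CD163. FKBP5 is an immunophilin that lowers the receptor's affinity for its ligand, so its induction forms a negative feedback loop.

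Library totals ran from 18257930 to 20179875 counts. Macrophage genes were abundant in every library, with Csf1r between 1490 and 1619 CPM (counts scaled to library size, with TMM factors) and Cd68 between 1602 and 1828 CPM. Of 8 listed macrophage genes, 1 rose by edgeR (0.861% of all genes did) and 0 fell (0.136%). The gene that rose was Itgam, which encodes CD11b, from 220 and 180 CPM in controls to 328 and 345 CPM with MK-8931 (edgeR adjusted p = 0.0485). Both MK-8931 libraries lay above both controls in 3 of the 8 and below in 2 (21.2% and 20.0% of all genes). Neutrophil markers stood higher with MK-8931: of 13 listed, 8 were tested, 7 rose and 0 fell, and their summed level was 84.7 to 85.9 CPM in controls and 537 to 892 CPM with MK-8931, with the granule gene Elane at 0 counts throughout. Of 6 monocyte markers 4 rose, their sum going from 99.1 to 168 CPM in controls to 381 to 440 CPM with MK-8931. The part of these cells in the results below was not tested. In bulk libraries, fewer cells of a type and less RNA per cell cannot be told apart. The labels name no separate animals, and p-values therefore measure only how far these samples spread, which may be technical. An exact permutation test of 2 against 2 libraries cannot go below a two-sided p of 0.333.

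Promoter sequences are shown before the values, because the receptor acts through DNA elements. The RefSeq table for GRCm38.p6 gave 16 windows for 8 of the 10 genes, each from 250 bases before to 50 after an annotated transcript start; Nr3c1 and Zbtb16 had none. Both strands were searched for the palindromic glucocorticoid response element (the arm GNACA, a gap of 3 bases and then the same arm on the other strand) and for the single arm GAACA. The other motifs were the E-box CACGTG, the cyclic AMP response element TGACGTCA, the TATA box TATAAA and the metal response element, of which a first form is TGCACNC and the other form is TGCGCNC. The single arm can lie within a match of the full element. The full element was found in 2 of the 16 windows, 1 of Sgk1 and the window of Mt1, against 0.475% of 32851 windows of the same length in the table. In Sgk1 the match GAACAGAATGTTC lay at chr10:21993702-21993714, within an intron of the annotated gene and 188 to 176 bases before the start of that transcript. The Mt1 match GGACATGATGTTC lay at chr8:94178995-94179007, outside the annotated gene and 75 bases before its start. The windows below are 5′ to 3′ on the strand of the gene, with matches to the motifs other than the single arm in capitals.
Sgk1 (GRCm38.p6, chr10:21993640-21993939, plus strand): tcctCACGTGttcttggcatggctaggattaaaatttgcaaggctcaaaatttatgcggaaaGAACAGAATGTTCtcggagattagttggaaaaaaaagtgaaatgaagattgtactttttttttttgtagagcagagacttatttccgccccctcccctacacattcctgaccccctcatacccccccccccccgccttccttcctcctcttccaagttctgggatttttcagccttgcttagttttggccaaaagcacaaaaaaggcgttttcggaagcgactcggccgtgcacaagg
Mt1 (GRCm38.p6, chr8:94178839-94179138, plus strand): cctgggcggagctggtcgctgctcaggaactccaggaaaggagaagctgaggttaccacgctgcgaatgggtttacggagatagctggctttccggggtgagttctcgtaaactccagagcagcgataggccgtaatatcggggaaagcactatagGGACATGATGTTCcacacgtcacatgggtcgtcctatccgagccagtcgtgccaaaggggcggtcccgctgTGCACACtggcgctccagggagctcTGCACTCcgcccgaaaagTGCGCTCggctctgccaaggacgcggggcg
Fkbp5 (GRCm38.p6, chr17:28486100-28486399, minus strand): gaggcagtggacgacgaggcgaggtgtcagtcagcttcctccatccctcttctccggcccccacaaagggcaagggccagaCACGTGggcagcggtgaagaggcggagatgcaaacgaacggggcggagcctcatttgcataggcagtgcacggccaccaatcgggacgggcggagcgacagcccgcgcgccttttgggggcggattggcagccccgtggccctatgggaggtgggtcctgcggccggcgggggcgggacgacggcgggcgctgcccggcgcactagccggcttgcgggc
Dusp1 (GRCm38.p6, chr17:26508423-26508722, minus strand): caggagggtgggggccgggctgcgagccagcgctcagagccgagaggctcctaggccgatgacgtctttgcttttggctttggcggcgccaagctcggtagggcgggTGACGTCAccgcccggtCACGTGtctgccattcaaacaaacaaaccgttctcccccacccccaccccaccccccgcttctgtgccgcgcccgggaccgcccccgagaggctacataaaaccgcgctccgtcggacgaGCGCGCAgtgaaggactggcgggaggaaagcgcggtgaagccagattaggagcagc
The first pair holds the full elements, the Fkbp5 window, whose start lies within the annotated gene, belongs to the gene with the largest difference below, and Dusp1 serves as a gene whose groups overlapped. An E-box stood in the Fkbp5 and Dusp1 windows, in 1 of the 2 Per1 windows and in 1 of the 6 Sgk1 windows, against 7.15% of all windows. Metal response elements numbered 3 in the Mt1 window (25.7% of all windows hold at least 1), where the gene is known to answer zinc through the factor MTF1. The Dusp1 window, 1 of the 2 Per1 windows and 1 of the 6 Sgk1 windows held 1 each. Dusp1 carried a cyclic AMP response element (1.79% of windows). The single arm, present in 41.7% of all windows, was found 3 times in the Cd163 window and 3 times in 1 of the 6 Sgk1 windows. It also stood in other Sgk1 windows and in windows of Tsc22d3 and Mt1, and not at all in those of Fkbp5, Per1, Dusp1 and Klf9. A match is a description of letters in the window and a missing match says nothing of more distant sites.

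**Figure D1:**
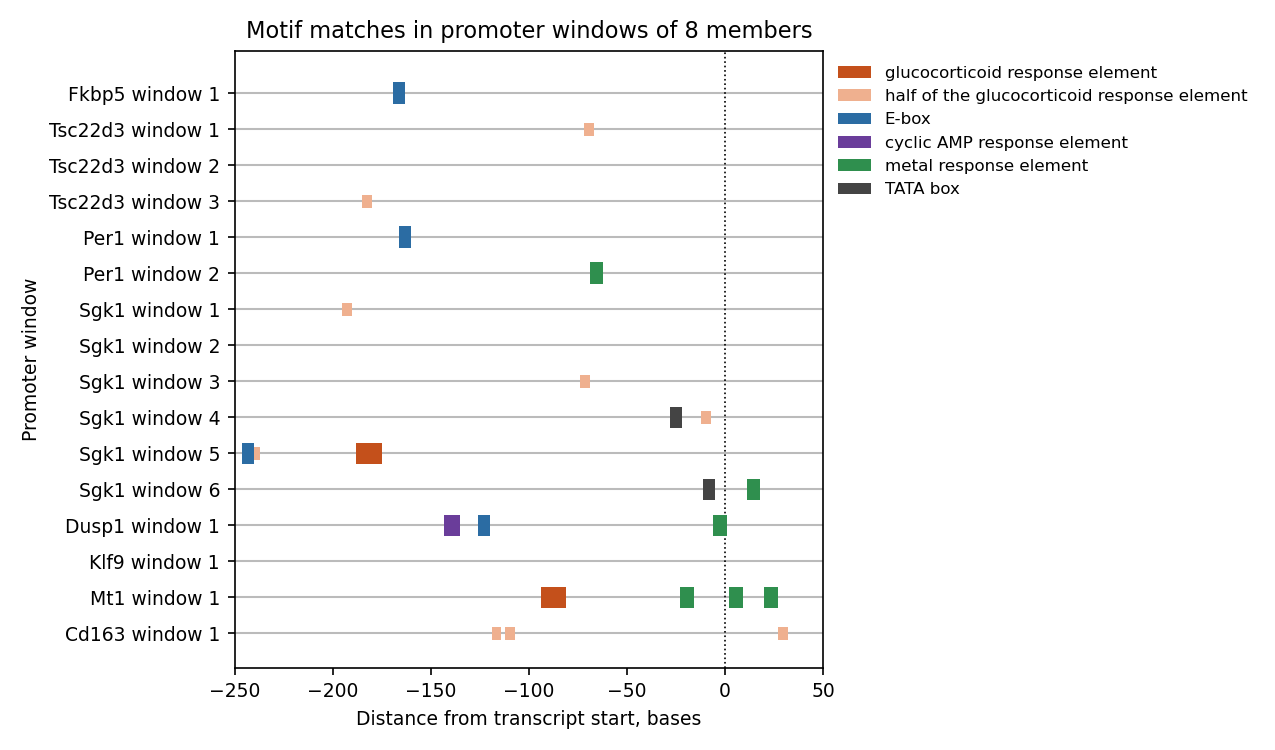
Motif matches in the 16 promoter windows of 8 genes, plotted by distance in bases from the transcript start (dotted line at 0), 1 row per window numbered by genome position, with coloured blocks for each motif. The full glucocorticoid response element appears in 1 Sgk1 window, 188 bases before the start, and in the Mt1 window, 94 bases before it.

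Across the 10 genes, 9 had a negative fitted log2 fold change of MK-8931 over control, as did 50.4% of the 13932 genes tested. The median of the 10 was -0.53, against -0.00 over all genes tested. In 7 of them both MK-8931 libraries lay below both controls, a pattern that 20.0% of all tested genes showed. In 0 did both lie above (21.2% of all genes), and in the other 3 the groups overlapped. By edgeR's quasi-likelihood test with Benjamini-Hochberg adjustment over all genes, 1 of the 10, Fkbp5, was past the threshold of 0.05 as lower (0.136% of all genes were) and 0 as higher (0.861% of all genes were). At an unadjusted p under 0.05 there were 6 lower (4.25% of all genes were) and 0 higher (6.53%). DESeq2 called 4 lower and 0 higher, against 0.747% and 2.07% of the genes to which it gave an adjusted p. By edgeR, 6 were called lower with no filter on low counts (0.744% of all genes) and 6 when replicate number entered as a block (1.97%). Without control 1 it called 5 of them lower, where lower calls over all genes also went up, to 1.64%, and without control 2 it called 4 (0.312% of all genes). Only Fkbp5 was called without MK-8931 1 (0.156%) or without MK-8931 2 (0.0669%). In these 6 settings 0 of the 10 were called higher, against 1.55%, 3.36%, 3.50%, 1.16%, 0.869% and 0.568% of all genes in the same order. The authors' deposited table likewise has 4 of the 10 lower and 0 higher at an adjusted p under 0.05, where it has 0.420% of its genes lower and 1.08% higher; those 4 are Fkbp5, Sgk1, Mt1 and Cd163. Because the genes were chosen with this contrast known, no more is read from these counts.

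**Figure D2:**
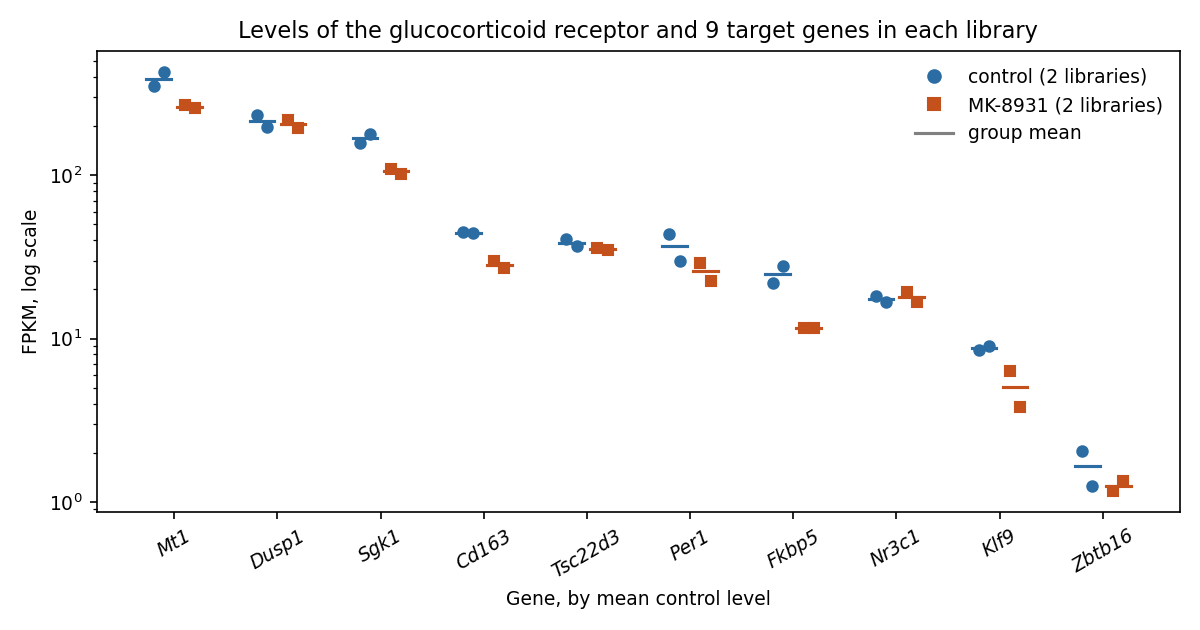
FPKM (log axis) of the 10 genes in each library, ordered by mean control level, with circles for the 2 controls, squares for the 2 MK-8931 libraries and bars at group means. Mt1 stands highest, at 391 FPKM in controls, and Zbtb16 lowest, at 1.65 FPKM, and the 2 groups separate most for Fkbp5.

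The receptor itself was expressed at an even level. Nr3c1 (ENSMUSG00000024431, chromosome 18, 39410545 to 39491301, minus strand, GRCm38) stood at 136 and 125 CPM in the control libraries against 143 and 126 CPM in the MK-8931 libraries. The groups overlapped, with MK-8931 1 the highest library and control 2 the lowest. Its fitted log2 fold change was 0.05 (SE 0.13), and it ran from -0.06 without MK-8931 1 to 0.13 without MK-8931 2. On the FPKM scale, which corrects for gene length, it lay at 17.5 ± 0.925 FPKM in controls (SD, n = 2), above 80.1% of the genes tested.

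Its close relative Nr3c2, the mineralocorticoid receptor, which also binds glucocorticoids, was at a low level, with 18 and 31 counts in the control libraries against 7 and 11 in the MK-8931 libraries. The difference did not pass the test (log2 fold change -1.41, SE 0.77, adjusted p = 0.595 by edgeR). Chaperones that hold the receptor ready for ligand were abundant. Hsp90ab1, an HSP90 subunit, stood at 1312 and 1471 CPM in the control libraries against 1413 and 1438 CPM in the MK-8931 libraries, and Ptges3, the p23 co-chaperone, had a log2 fold change of 0.04 (SE 0.13). Of 27 listed genes of the receptor's chaperones, co-regulators and ligand metabolism, 26 were tested. Of these, 1 rose and 0 fell by edgeR (0.861% and 0.136% of all genes did). The counts were also 1 and 0 at an unadjusted p under 0.05 (6.53% and 4.25% of all genes). DESeq2 likewise called 1 and 0, against 2.07% and 0.747% of the genes to which it gave an adjusted p. The list median was 0.07 against -0.00 over all genes, and -0.03 without control 2. This list and those below were written with earlier results of these data known, so their shares are a description.

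The gene that rose was Hsd11b1, which encodes the reductase that regenerates active glucocorticoid from its inert keto form inside cells. It had 13 and 14 counts in the control libraries against 66 and 106 in the MK-8931 libraries, so both treated libraries lay above both controls, at a low level (0.708 ± 0.0109 against 4.57 ± 1.68 CPM). Its log2 fold change was 2.68 (SE 0.49, edgeR adjusted p = 0.0460), and the call was lost without MK-8931 2 (0.276). Hsd11b2, which runs the opposite reaction, had 8 and 1 counts in the control libraries against 17 and 2 in the MK-8931 libraries and was not tested. The neutrophil markers moved with this gene, 7 of 8 higher, and their part in it was not tested.

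Fkbp5 showed the largest difference of the 10. The gene (ENSMUSG00000024222, chromosome 17, 28399094 to 28517527, minus strand) had 209 and 261 CPM in the control libraries against 110.3 and 110.2 CPM in the MK-8931 libraries. Both treated libraries sat at one level, below both controls with a gap of 0.92 on the log2 scale. Its fitted log2 fold change was -1.09 (SE 0.14), so the MK-8931 mean was 46.8% of the control mean, and 1.90% of all tested genes had a lower value. The direction held with each library left out, from -1.25 without control 1 to -0.93 without control 2, and in the authors' deposited table the log2 fold change is -1.10.

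Its paralogue Fkbp4, which encodes the immunophilin FKBP52 that competes for the same place on the receptor complex and favours transport to the nucleus, stood at 61.5 and 68.5 CPM in the control libraries against 62.5 and 73.6 CPM in the MK-8931 libraries. The groups overlapped (log2 fold change 0.07, SE 0.15, edgeR adjusted p = 0.938). Per unit of length, Fkbp5 was close to Fkbp4 in controls, with FPKM ratios of 1.00 and 1.13, and lower with MK-8931, at 0.521 and 0.442. Against the receptor, the Fkbp5 to Nr3c1 FPKM ratio was 1.21 and 1.64 in the control libraries against 0.603 and 0.688 in the MK-8931 libraries. In level, then, Fkbp5 lay above Nr3c1 in both controls and below it in both treated libraries.

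Tsc22d3 encodes GILZ, a leucine zipper protein through which glucocorticoids restrain NF-kB and AP-1. It was nearly level, at 177 and 159 CPM in the control libraries against 157 and 153 CPM in the MK-8931 libraries. Both treated libraries lay below both controls, but by a gap of 0.02 on the log2 scale, less than the 0.15 that separated the controls. The log2 fold change was -0.12 (SE 0.13), and 33.3% of all tested genes had a lower value.

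Sgk1, a kinase that governs ion channels and transporters and is named for its induction by serum and glucocorticoid, had the highest counts of the 10 in controls. The gene (ENSMUSG00000019970, chromosome 10, 21882184 to 21999903, plus strand) had 781 and 872 CPM in the control libraries against 541 and 505 CPM in the MK-8931 libraries. Treated libraries lay below both controls by a gap of 0.53 on the log2 scale, wider than the 0.16 between controls. The fitted log2 fold change was -0.66 (SE 0.13), between -0.75 and -0.58 with any 1 library left out. Its relative Sgk3 stood at 65.2 and 66.0 CPM in the control libraries against 73.3 and 67.4 CPM in the MK-8931 libraries (log2 fold change 0.10, SE 0.14, edgeR adjusted p = 0.874), and Sgk2 had 0 counts in every library.

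Cd163 encodes the haemoglobin-haptoglobin scavenger receptor, a macrophage protein that glucocorticoids are known to induce. It stood at 245 and 241 CPM in the controls, which differed from each other by 0.03 on the log2 scale, and at 164 and 148 CPM with MK-8931. Both treated libraries were lower, and the fitted log2 fold change was -0.64 (SE 0.12), or -0.72 to -0.58 with each library left out. Cd163 is also a marker of border-associated macrophages. Of the 8 listed markers of those cells, 5 had negative values, as did 50.4% of all genes tested. The smallest edgeR adjusted p among them was 0.126, for Lyve1, and their summed level was 3741 to 3779 CPM in controls and 3875 to 4355 CPM with MK-8931. The mannose receptor gene Mrc1, of the same list, differed by 0.42 on the log2 scale (SE 0.14, edgeR adjusted p = 0.298), and the Cd163 to Mrc1 FPKM ratio was 0.281 and 0.325 in the control libraries against 0.139 and 0.151 in the MK-8931 libraries.

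Klf9, a zinc-finger transcription factor that the receptor induces in many tissues, was expressed at a lower level. It had 516 and 573 counts in controls, or 27.8 and 29.3 CPM, and 403 and 231 counts with MK-8931, or 20.7 and 12.6 CPM. The treated libraries lay below both controls yet differed from each other by 0.72 on the log2 scale. Its log2 fold change of -0.78 (SE 0.24) rested on MK-8931 2, being -0.48 without that library and -1.19 without MK-8931 1.

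Per1, a core gene of the circadian clock that glucocorticoids induce directly, had 248 and 167 CPM in the control libraries against 165 and 129 CPM in the MK-8931 libraries. Control 2 and MK-8931 1 were nearly equal, so the groups were separated by a gap of only 0.02 on the log2 scale. The fitted log2 fold change of -0.50 (SE 0.20) depended on the controls, at -0.19 without control 1 and -0.76 without control 2. Of 17 other clock genes listed, 16 were tested, of which 0 rose and 0 fell by edgeR (0.861% and 0.136% of all genes did). DESeq2 called 0 higher and 1 lower, against 2.07% and 0.747% of the genes to which it gave an adjusted p. At an unadjusted p under 0.05, 0 were higher and 4 lower, or 25% of the list, where 4.25% of all genes were lower. Of the 16, 15 had a negative log2 fold change, as did 50.4% of all genes tested. The list median was -0.26, or -0.35 to -0.25 with each library left out. Both MK-8931 libraries lay below both controls in 12 of the 16, against 20.0% of all genes. Nr1d1, which encodes the clock repressor REV-ERB alpha, had 79.3 and 75.1 CPM in the control libraries against 54.0 and 43.2 CPM in the MK-8931 libraries (log2 fold change -0.67, SE 0.16, edgeR adjusted p = 0.112). This gene shares 263 exonic bases with Thra on the opposite strand, and whether the counting used strand is not given in the sources used here. The collection time of the tumours is likewise not given there. Values for Ciart, another clock repressor, were -0.56 (SE 0.20, edgeR adjusted p = 0.322), and for Per2 -0.50 (SE 0.19, edgeR adjusted p = 0.362).

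Mt1 encodes metallothionein 1, a small zinc-binding protein induced both by metals and by glucocorticoids, and was the highest of the 10 per unit of length. The gene (ENSMUSG00000031765, chromosome 8, 94179082 to 94180327, plus strand) had 440 and 535 CPM in the control libraries against 340 and 322 CPM in the MK-8931 libraries. Both treated libraries were below both controls, with a gap of 0.37 on the log2 scale against 0.28 between controls. Its log2 fold change was -0.56 (SE 0.14), or -0.41 without control 2 and -0.70 without control 1.

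Mt2, the neighbouring metallothionein gene usually induced with it, had only 36 and 53 counts in the control libraries against 31 and 32 in the MK-8931 libraries, and Mt1 exceeded it by 87.5 to 107 times in FPKM. Of its 588 annotated exonic bases, 432 (73.5%) also belong to the antisense gene Gm45774, which had 6 to 10 counts, so the level of Mt2 is uncertain. Of 7 other metallothionein and zinc genes listed, Mt2 included, 6 were tested, of which 0 rose and 0 fell by edgeR (0.861% and 0.136% of all genes did). At an unadjusted p under 0.05, 1 was higher and 1 lower, where 6.53% and 4.25% of all genes were. DESeq2 called 0 and 0, against 2.07% and 0.747% of the genes to which it gave an adjusted p. Slc30a1, the zinc exporter, which answers zinc through the same factor as Mt1, differed by -0.54 on the log2 scale (SE 0.14, edgeR adjusted p = 0.143), and the importer Slc39a14 by 0.41 (SE 0.16, edgeR adjusted p = 0.379).

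Dusp1, a phosphatase that switches off the p38 and JNK kinases and is induced by glucocorticoids as well as by stress, overlapped between the groups. It had 631 and 532 CPM in the control libraries against 596 and 527 CPM in the MK-8931 libraries, with a log2 fold change of -0.05 (SE 0.14). Control 1 was the highest library, and the value turned to 0.07 without it. Immediate-early genes, which share its fast induction by stress and tissue dissociation, were called differently by different settings. Of 15 tested, 2 rose (0.861% of all genes did) and 0 fell (0.136% did), with a median of -0.02. The 2 that rose are heat-shock genes that were counted in this list. Both MK-8931 libraries lay below both controls in 5 of the 15 and above in 4 (20.0% and 21.2% of all genes). At an unadjusted p under 0.05, 3 were higher and 5 lower (6.53% and 4.25% of all genes). DESeq2 called 0 higher and 2 lower, against 2.07% and 0.747% of the genes to which it gave an adjusted p. With no filter on low counts the calls were 2 higher and 3 lower, with the replicate number as a block 5 and 6, and without control 1 they were 4 and 4, against 1.55% and 0.744%, 3.36% and 1.97%, and 3.50% and 1.64% of all genes. The genes that rose, Hspa1a (log2 fold change 1.58, SE 0.28, edgeR adjusted p = 0.0454) and Hspa1b (1.67, SE 0.30, edgeR adjusted p = 0.0460), encode near-identical HSP70 chaperones, so reads may be split between them. Neither passed without MK-8931 1 (0.219 for both) or without MK-8931 2 (0.190 and 0.185), and neither did with DESeq2 (0.0607 and 0.0583). Dusp5, a phosphatase specific to ERK, was at 19.5 and 15.7 CPM in the control libraries against 38.6 and 30.1 CPM in the MK-8931 libraries (log2 fold change 0.96, SE 0.20, edgeR adjusted p = 0.0680). Among paralogues and close relatives of the 10 genes, 16 were listed and 14 tested, of which 0 rose and 0 fell by edgeR (0.861% and 0.136% of all genes did). At an unadjusted p under 0.05, 1 was higher and 2 lower, where 6.53% and 4.25% of all genes were. DESeq2 called 1 higher and 0 lower, against 2.07% and 0.747% of the genes to which it gave an adjusted p.

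Zbtb16, which encodes the transcription factor PLZF and is among the most strongly glucocorticoid-induced genes in several tissues, was the lowest of the 10 per unit of length. It had 202 and 129 counts in the control libraries against 121 and 131 in the MK-8931 libraries, or 10.9 and 6.59 CPM against 6.21 and 7.12 CPM. Control 1 was high, control 2 lay between the MK-8931 libraries, and the log2 fold change of -0.39 (SE 0.31) became 0.01 without control 1. PLZF also marks innate-like T cells. Of 11 T and NK cell markers, 5 (Trbc2, Nkg7, Ncr1, Klrb1c and Gzma) had 0 counts in every library. Counts were 2 to 7 for Cd3e, 0 to 9 for Cd3d, 0 to 2 for Cd3g, 0 to 5 for Cd8a and 0 to 8 for Il2rb. The summed level of that list, 37.6 to 48.8 CPM in controls and 27.8 to 29.6 CPM with MK-8931, was nearly all Cd4, which macrophages also express. The part of T cells in the level of Zbtb16 was not tested.

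In order of level per unit length, controls ran from Mt1 (391 ± 56.3 FPKM) through Dusp1 (215 ± 24.7), Sgk1 (168 ± 14.1), Cd163 (44.4 ± 0.301), Tsc22d3 (38.7 ± 2.68), Per1 (36.8 ± 9.95), Fkbp5 (24.8 ± 4.02), Nr3c1 and Klf9 (8.73 ± 0.374) to Zbtb16 (1.65 ± 0.563 FPKM; SD, n = 2). Tsc22d3 and Per1 did not differ beyond the spread of the controls, and every other pair of neighbours had control values that did not overlap. With MK-8931 the order was the same except for 2 exchanges of neighbours, Tsc22d3 (35.4 ± 0.673) above Cd163 (28.4 ± 2.07) and Nr3c1 (18.0 ± 1.70) above Fkbp5 (11.6 ± 0.0153 FPKM). The annotated exons of Mt1 together cover the whole span of the gene, 1246 bases.

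**Figure D3:**
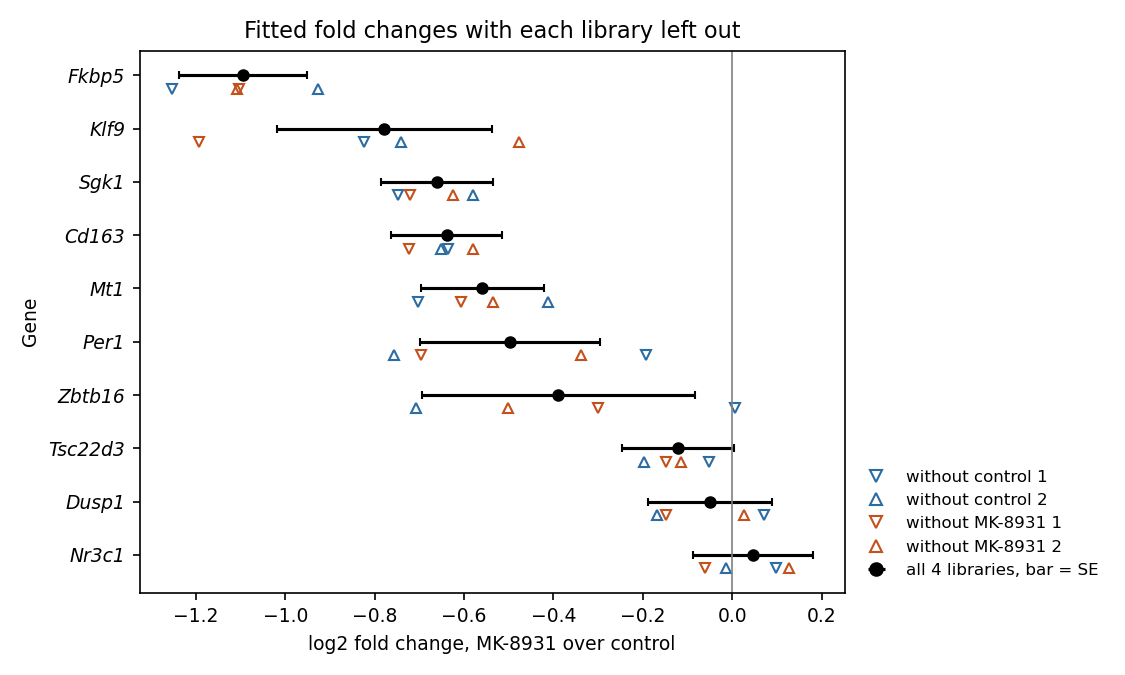
Fitted log2 fold change of MK-8931 over control for the 10 genes: black points with SE bars use all 4 libraries, and open triangles leave out 1 library each. Fkbp5 stays between -1.25 and -0.93, Klf9 spreads from -1.19 to -0.48, and Zbtb16, Dusp1 and Nr3c1 reach both sides of 0.

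Among 30 other general targets of the receptor, 27 were tested, of which 0 rose and 1 fell by edgeR (0.861% and 0.136% of all genes did). DESeq2 called 2 higher and 2 lower, against 2.07% and 0.747% of the genes to which it gave an adjusted p. At an unadjusted p under 0.05, 4 (14.8%) were higher and 3 (11.1%) lower, against 6.53% and 4.25% of all genes. Their median log2 fold change was -0.01, against -0.00 for all genes, and it was 0.09 without MK-8931 2 and -0.15 without MK-8931 1. The gene that fell was Adarb1, which encodes the RNA-editing enzyme ADAR2, from 17.8 and 24.4 CPM in the controls to 6.82 and 8.81 CPM with MK-8931 (log2 fold change -1.43, SE 0.25, edgeR adjusted p = 0.0359); with MK-8931 1 left out its adjusted p was 0.0831. Low-level targets with a negative value included Pdk4, a kinase that restrains pyruvate oxidation (-0.93, SE 0.40, edgeR adjusted p = 0.444), named after its value was seen. On the other side Cebpd, a transcription factor of the acute-phase response, was at 20.2 and 22.6 CPM in the control libraries against 36.2 and 44.0 CPM in the MK-8931 libraries (log2 fold change 0.91, SE 0.17, edgeR adjusted p = 0.0537), and was named after its value was seen.

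Of 18 further targets known from macrophages, all tested, 3 rose and 0 fell by edgeR (0.861% and 0.136% of all genes did), with a median of 0.23. DESeq2 called 5 higher and 1 lower, against 2.07% and 0.747% of the genes to which it gave an adjusted p. At an unadjusted p under 0.05, 7 (38.9%) were higher and 3 (16.7%) lower, against 6.53% and 4.25% of all genes. Il1r2, the decoy receptor for interleukin 1, went from 5.87 and 4.60 CPM to 25.4 and 46.2 CPM (log2 fold change 2.77, SE 0.31, edgeR adjusted p = 0.00433). Fpr1, a receptor for formyl peptides and annexin A1, went from 4.25 and 3.88 CPM to 13.3 and 27.4 CPM (2.32, SE 0.35, edgeR adjusted p = 0.0207). Both are also expressed by neutrophils, whose markers moved with them (7 of 8 tested higher). The sort for cells negative for Gr1 is a gate meant to leave out neutrophils, and how fully it did so was not measured here. Ly6g, which encodes an antigen behind that gate, had 0 counts in both controls and in MK-8931 1 and 14 in MK-8931 2. Among the listed neutrophil granule genes, counts were 0 to 3 for Camp, 0 to 7 for Ngp and 4 to 17 for Mpo. Ltf had 10 and 1 counts in the control libraries against 42 and 29 in the MK-8931 libraries. Mmp8 had 229 and 261 counts in the control libraries against 1161 and 1543 in the MK-8931 libraries. The part of neutrophils in these results was not tested. Thbs1, a matrix protein made by macrophages and platelets, went from 287 and 165 CPM to 703 and 560 CPM (1.48, SE 0.24, edgeR adjusted p = 0.0299). Vsig4, a complement receptor of resident macrophages, named after its value was seen, lay the other way, with 19.2 and 38.7 CPM in the control libraries against 10.8 and 12.2 CPM in the MK-8931 libraries (-1.33, SE 0.31, edgeR adjusted p = 0.106).

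Of 24 inflammatory genes that glucocorticoids are known to repress, 22 were tested. Of these, 6 rose (0.861% of all genes did) and 1 fell (0.136% did), with a median of 0.44, or 0.28 without control 1. The list was written with earlier results of these data known, so these shares are a description and not a test of enrichment. Il1b, which encodes interleukin 1 beta, went from 42.8 and 30.0 CPM to 265 and 419 CPM, Ptgs2, the inducible prostaglandin synthase, from 57.0 and 63.8 to 188 and 190 CPM, and Nos2, the inducible nitric oxide synthase, from 51.2 and 33.0 to 163 and 153 CPM. The other genes that rose were Cxcl2, Mmp9 and Mmp13. For Il1b, Ptgs2 and Nos2 the log2 fold changes were 3.23 (SE 0.25), 1.65 (SE 0.13) and 1.91 (SE 0.20), with edgeR adjusted p of 0.00084, 0.00084 and 0.00352. The call for Il1b was lost with the replicate number as a block, as given below. Vcam1, an adhesion molecule, was the gene that fell, from 136 and 173 CPM to 81.8 and 89.8 CPM (-0.85, SE 0.15, edgeR adjusted p = 0.0453). Its adjusted p was above the threshold without MK-8931 1 (0.172) and without MK-8931 2 (0.103), with log2 fold changes of -0.79 and -0.93, and the call held in the other 6 alternatives. Tnf, which encodes the cytokine TNF and was picked out once its value was known, lay the other way (log2 fold change -0.95, SE 0.19, edgeR adjusted p = 0.0605). Neutrophils are known to express Il1b and Mmp9, and the neutrophil markers moved with this list (7 of 8 tested higher, summed as above); their part in it was not tested.

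**Figure D4:**
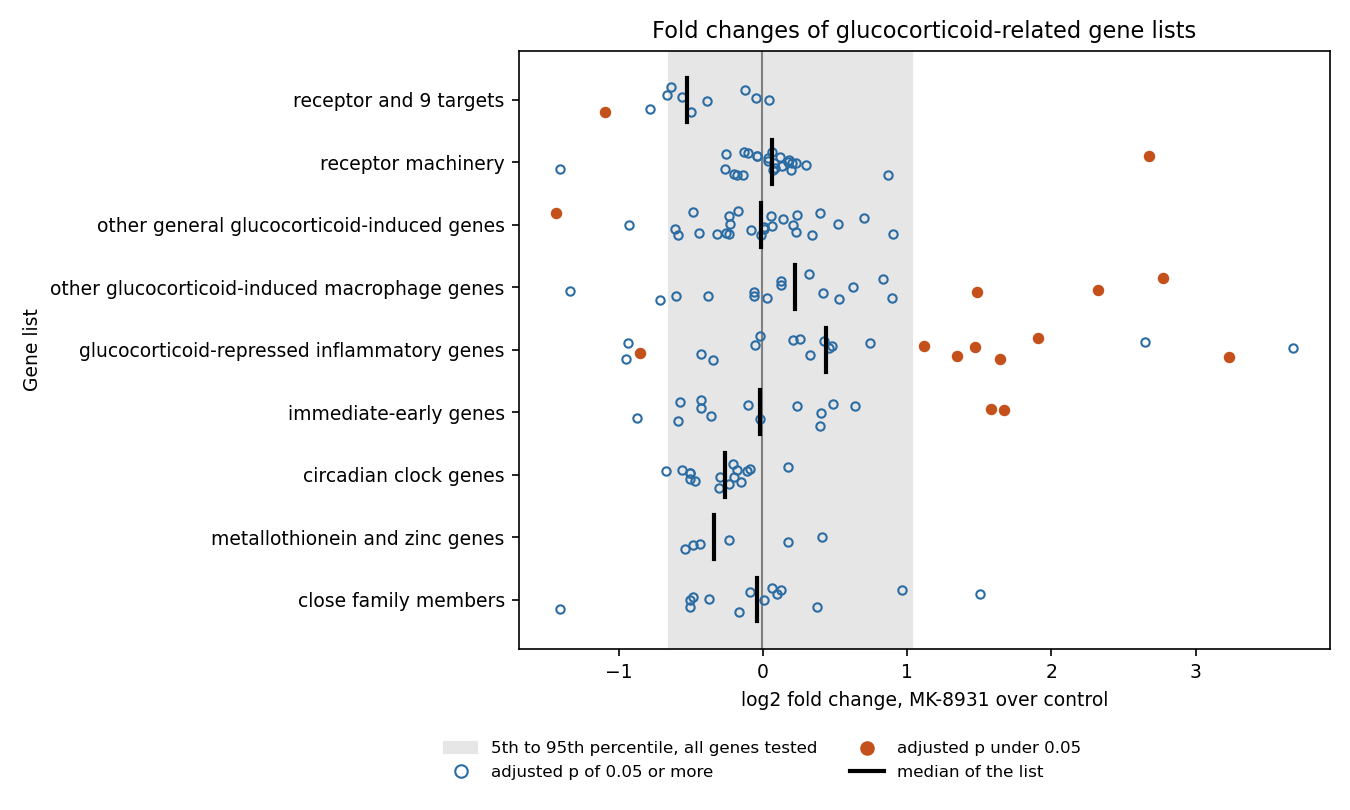
Log2 fold change of MK-8931 over control for each tested gene of the 10 genes followed here and of 8 related lists (rows), with filled points past an edgeR adjusted p of 0.05, black bars at list medians and the grey band covering the 5th to 95th percentile of all genes tested (-0.65 to 1.03). The 10 genes have a median of -0.53, the general targets one of -0.01 and the repressed inflammatory genes one of 0.44.

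Genes whose pattern over the 4 libraries lay nearest to that of Fkbp5 and of Nr3c1 were found by Euclidean distance between log2(CPM + 1) values centred per gene, among 9610 protein-coding genes of at least 5 CPM. Nearest to Fkbp5 were Adamts1 (distance 0.123), Lyz1 (0.147), Fkbp7 (0.154), S100b (0.194) and Fkbp14 (0.204), and 4 genes in all lay within 0.2. Adamts1, a secreted metalloprotease, had 26.5 and 29.6 CPM in the control libraries against 12.3 and 12.4 CPM in the MK-8931 libraries. Nearest to Nr3c1 were Atp9b (0.0164), Tob2 (0.0212), Setd7 (0.0238), Sptbn1 (0.0260) and Mindy1 (0.0269), and 1747 genes lay within 0.2, a larger number than for Fkbp5.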

How the data were processed

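RNA sequencing counts of 4 libraries (control 1 and 2, MK-8931 1 and 2, grouped by title) were read from one table. Per the file headers the deposited columns include whole-number counts, unscaled. The authors' FPKM columns were checked and carry the same counts divided by gene length and multiplied by a library factor (0.969 to 1.03) and a constant. FPKM were therefore described but not tested. The submitters' processing notes name CASAVA and mm9, but of 54409 gene identifiers shared with GENCODE M21 (GRCm38), 98.33% have the same coordinates, so GRCm38 is used. No aligner, counter or strand setting is given in the sources used here.

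Counts were fitted with edgeR 4.0.16 (R 4.3.3): filterByExpr with a minimum count of 10 (13932 genes), TMM scaling, robust quasi-likelihood F test, two-sided, Benjamini-Hochberg adjustment over all genes, threshold 0.05. SE is the absolute log2 fold change over the square root of F. CPM are TMM-scaled. DESeq2 1.42.0, other scaling, no filter, a replicate block and leaving out each library were alternatives. On simulated data with 13488 genes, 18 of 77 planted 1.5-fold changes, 31 of 56 at 2-fold and 53 of 62 at 4-fold were found, with 0 false calls. The spread of the simulated libraries was not matched here to that of the real ones, so these rates are not carried over to the calls above. Chi-square per degree of freedom was 26.8 between controls and 15.7 between MK-8931 libraries, so no library was counted as a repeat.

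The 10 genes and the lists were chosen with earlier results of these data known. Named genes are the 10, the 3 smallest p in each direction among called genes of each list (or, with none called, the 2 smallest p), and the nearest patterns; other genes were chosen after their values were seen. The authors' deposited log2 fold changes and adjusted p are quoted as theirs.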

Additional observations from a re-analysis of the deposited data

How the results depend on the processing

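Fkbp5 was called lower in each alternative that kept all 4 libraries, and its log2 fold change was -1.25 to -0.93 with each library left out. These refits reuse the contrast by which the 10 genes were chosen, so they give no independent support. Of the 10 genes, 1 was called lower with all libraries, 6 with no filter on low counts (Fkbp5, Per1, Sgk1, Klf9, Mt1 and Cd163), 4 by the DESeq2 Wald test and 1 to 5 with each library left out, while 0 were called higher under any of these. Over all genes, 120 were higher and 19 lower, against 366 and 176 with no filter, 266 and 96 by DESeq2, and 85 to 520 and 10 to 243 with each library left out (520 and 243 without control 1, 47 lower without control 2 and 10 lower without MK-8931 2); the cause was not tested. With the replicate number as a block, 468 and 275 genes were called and 6 of the 10 genes were lower. Same-numbered libraries deviated together (correlation 0.243), but with 2 pairs the numbers do not establish pairing. The block also gave 4 higher and 2 lower general targets, 7 and 3 macrophage targets and 9 and 2 inflammatory genes. Over all genes it called 3.36% higher and 1.97% lower. Its edgeR adjusted p for Il1b was 0.214.

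With no filter, 1.55% of all genes were called higher and 0.744% lower. DESeq2 called 2.07% and 0.747% of the genes to which it gave an adjusted p. Against these shares, general targets went from 0 higher and 1 lower to 3 and 2 with no filter and 2 and 2 by DESeq2. With each library left out, their median log2 fold change ran from -0.15 to 0.09. Macrophage targets went from 3 and 0 to 5 and 2 with no filter, 5 and 1 by DESeq2, and 3 to 6 and 0 to 3 with each library left out. Repressed inflammatory genes that were lower numbered 2 with no filter and 2 by DESeq2, and 0 to 2 with each library left out, and the receptor list had 0 to 1 higher. Immediate-early genes numbered 0 to 4 higher and 0 to 4 lower with each library left out, and 5 and 6 with the block. Zbtb16, at -0.39, ran from -0.71 to 0.0067 with each library left out, the last without control 1. A group left with 1 library is assumed to vary like the other. DESeq2 size factors changed no count by more than 1.5 times. Counting error limits Zbtb16 most, at 7.04% of its count in control 1 against 0.830% for Sgk1.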

Other observations

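For Fkbp5, 2150 counts in MK-8931 1 and 2027 in MK-8931 2 gave CPM values that differed by -0.0692% (second against first), while counting error is 2.16% of the first count, and the controls differed by 24.8%. For Klf9 the same differences were -39.2% between MK-8931 libraries and 5.38% between controls.

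All 7 of the microglial markers tested, such as P2ry12 (89.3 and 114 CPM in control libraries against 65.4 and 63.0 CPM) and Gpr34 (106 and 175 against 58.1 and 70.5 CPM), had negative log2 fold changes, as did 50.4% of all genes tested. The median of the 7 was -0.41, and the smallest edgeR adjusted p was 0.0609, for Gpr34. Their summed level was 2934 to 3526 CPM in control libraries against 2380 to 2599 CPM in MK-8931 libraries. Lyve1, a marker of perivascular macrophages, stood at 192 and 220 CPM in control libraries against 132 and 71.3 CPM (log2 fold change -1.02, edgeR adjusted p = 0.126). It is 1 of the 8 listed markers of border-associated macrophages. Both MK-8931 libraries lay below both controls in 3 of the 8 and above in 3 (20.0% and 21.2% of all genes). The part of these cells in the levels of Cd163 and Fkbp5 was not tested.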
